A study of Mus musculus with 8 samples.

Results

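The genes described here are 10 that mature fat cells use, namely Adipoq, Lep, Retn, Cfd, Plin1, Plin4, Cidec, Fabp4, Lpl and Pparg. They were chosen by name. Of the 10, 9 had a value, among 19752 genes with one, and each of the 9 had exactly 1 probe set. The expression of Cfd, which encodes the complement protease adipsin, is not analysed here, because no probe set carried its name in the annotation used, and Cfd enters only the promoter counts. Lep was too dim to test, so 8 members stood among the 14814 genes tested.

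The study profiled whole tibialis anterior, a shin muscle, from old male mice of strain C57BL/6 (99 weeks in the sample labels, 22 months in the design text), with 1 sample on each Mouse Gene 1.0 ST array of Affymetrix. Freezing injury came from a metal probe held in liquid nitrogen and then laid on the muscle for 8 s, and the tissue was collected at day 8. The rIL-33 group (4 arrays) received 2 µg of recombinant interleukin 33 into the abdominal cavity on the day before and again on the day after injury, and the comparison group (4 arrays) carries the treatment label PBS. Each group holds 2 arrays with the genetic background label WT (replicates 3 and 4) and 2 with the label C57BL/6 (replicates 1 and 2), and the sources used here do not say what these labels separate. All 8 muscles were injured and old, so uninjured or young muscle is not part of the comparison. Nothing says that each array came from its own mouse, so the p-values speak only of spread among these samples, which may be technical.

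White fat cells store triglyceride in a single large lipid droplet and secrete hormones that report on energy stores. In skeletal muscle, fat cells arise from fibro-adipogenic progenitors, mesenchymal cells that expand after injury and are normally cleared as fibres regrow, and fat between fibres is a known feature of aged or poorly repaired muscle. The transcription factors PPARγ and the C/EBP proteins switch on the fat cell genes. Several of these genes are not restricted to fat cells: Lpl is made by muscle fibres and macrophages, Fabp4 by capillary endothelium and macrophages, and Plin4 by muscle fibres.

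Promoter windows are shown first, because C/EBP proteins and PPARγ are known regulators of most of these genes and the results below ask whether the genes move together. RefSeq (GRCm38.p6) windows were at hand for 8 of the 10 members, as 11 windows of 250 bases directly before a transcript start. Capitals mark the letters TTGCNNAA, a C/EBP-type motif, and AGGTCA, the half-site that PPARγ and its partner RXR recognise, both searched on both strands.

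Lep (chr6:29059971-29060220, plus strand): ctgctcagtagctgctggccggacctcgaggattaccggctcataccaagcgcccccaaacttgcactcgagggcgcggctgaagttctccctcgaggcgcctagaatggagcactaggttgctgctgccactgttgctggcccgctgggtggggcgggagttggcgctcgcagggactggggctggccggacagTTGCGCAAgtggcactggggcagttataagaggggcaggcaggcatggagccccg

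Plin1 (chr7:79732777-79733026, minus strand): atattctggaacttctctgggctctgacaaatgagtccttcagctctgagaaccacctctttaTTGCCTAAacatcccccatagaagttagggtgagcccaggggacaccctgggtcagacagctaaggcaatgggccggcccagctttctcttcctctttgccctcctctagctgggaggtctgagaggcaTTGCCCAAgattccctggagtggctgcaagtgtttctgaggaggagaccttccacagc

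Cidec (chr6:113434765-113435014, minus strand, 1 of 2 windows): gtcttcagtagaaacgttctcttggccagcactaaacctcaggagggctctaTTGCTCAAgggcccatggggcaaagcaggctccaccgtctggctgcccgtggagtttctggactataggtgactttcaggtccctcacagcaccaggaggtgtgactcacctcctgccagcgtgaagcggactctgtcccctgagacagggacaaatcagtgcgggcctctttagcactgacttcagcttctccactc

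Pparg (chr6:115421816-115422065, plus strand, 1 of 3 windows): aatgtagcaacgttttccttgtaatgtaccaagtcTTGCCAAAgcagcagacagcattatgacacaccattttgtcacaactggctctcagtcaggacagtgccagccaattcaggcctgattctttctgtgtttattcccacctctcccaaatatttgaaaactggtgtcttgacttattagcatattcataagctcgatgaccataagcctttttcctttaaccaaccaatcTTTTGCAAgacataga

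Adipoq (chr16:23146286-23146535, plus strand): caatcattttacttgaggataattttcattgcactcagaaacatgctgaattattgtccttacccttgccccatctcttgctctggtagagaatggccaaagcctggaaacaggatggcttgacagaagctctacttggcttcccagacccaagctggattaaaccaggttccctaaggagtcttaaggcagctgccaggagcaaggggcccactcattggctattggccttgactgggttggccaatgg

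The C/EBP-type letters stood in 4 of the 11 windows, 1 each of Lep, Plin1, Cidec and Pparg, and in 9.56% of all 32851 windows of that length. In Lep the match began 55 bases before the start, and in Plin1 the matches began 187 and 58 bases before it. The half-site AGGTCA was found in 2 of the 11 windows, the other 2 of Pparg, and in 14.0% of all windows. The DR1 element, a direct repeat of the half-site with 1 base between, was in no member's window and in 0.0335% of all windows. The E-box letters CANNTG, not capitalised, were in 9 of the 11 windows and in 66.2% of all windows, and in Lep they overlap the C/EBP-type match. These matches are letters in a sequence, not measured binding, and the Adipoq window holds neither of the capitalised motifs.

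Across the 8 arrays as a whole, median intensity lay between 222.6 and 232.2. The arrays labelled WT had a higher lower quartile of intensity (97.1 to 107.3) than those labelled C57BL/6 (88.3 to 93.8). Their upper quartile was lower (511.6 to 560.2 on WT-labelled arrays, against 569.5 to 590.4 on C57BL/6-labelled ones). The 12 muscle fibre markers were all detected, with summed intensities of 122280 to 133761 on the rIL-33 arrays and 116632 to 128664 on the PBS arrays. A sum over a cell type's genes in whole muscle cannot tell fewer cells of a type from less RNA per cell.

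The adipocyte genes did not differ between rIL-33 and PBS muscle past the threshold, and no array led in all of them. Over the 9 members, rIL-33 replicate 3 was the highest array in 3 and PBS replicate 1 the lowest in 4. In limma with Benjamini-Hochberg adjustment over all genes tested, 0 of the 8 tested members were past an adjusted p of 0.05 (0.517 to 0.987), where the whole table had 1 gene, 0.00675% of those tested. That gene, named here after its value was seen, is Retnla, a paralog of Retn made by macrophages and also expressed in fat. It was higher with rIL-33 by 2.74 log2 units (SE 0.242, adjusted p = 0.00568). At an unadjusted p under 0.05 there was 1 member, Plin4, against 9.63% of all genes. Where the fit held the WT or C57BL/6 label as a block there were 3, Plin4, Plin1 and Lpl (limma adjusted p of 0.285 to 0.315), against 2244 of all 14814 genes. There were also 3 members with the replicate number as a block, against 2327 of all 14814 genes. Without PBS replicate 2 there were 3, against 1892 of all 14814 genes, and the member count was 0 to 3 over the 19 alternatives. The groups overlapped in all 9 members with a value, and 4.57% of all tested genes had groups that did not overlap (2.44% higher and 2.13% lower with rIL-33). The median log2 difference (rIL-33 minus PBS) of the 8 was 0.10, with 5 higher and 3 lower, and that of all genes tested was -0.01.

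**Figure D1:**
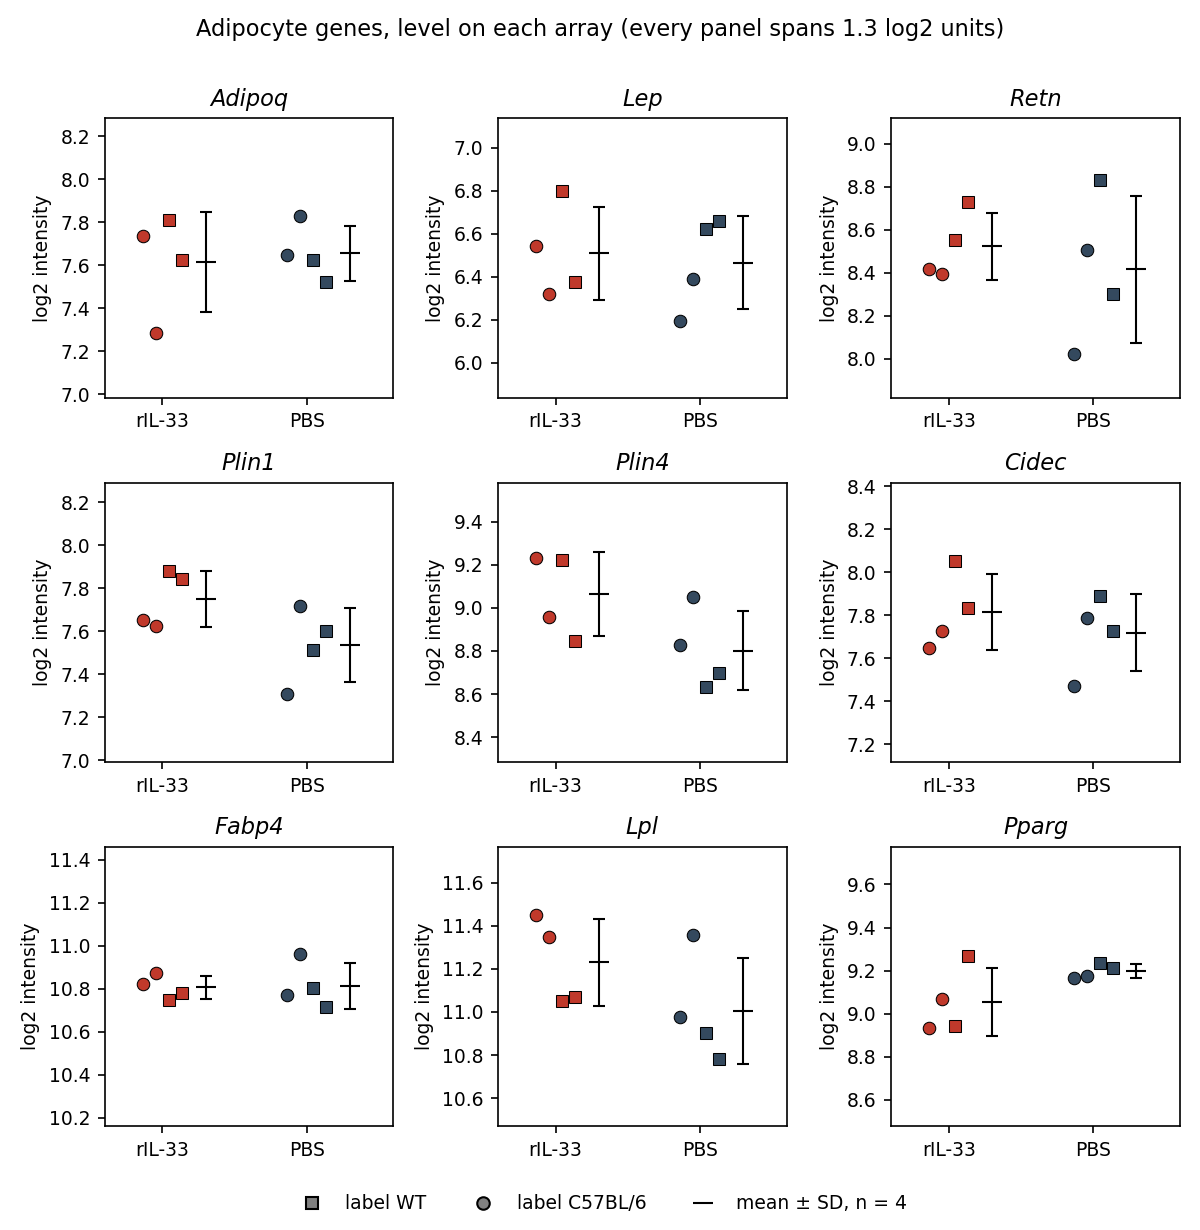
Level of each of the 9 adipocyte genes with a value, as log2 of the deposited intensity, on each rIL-33 array (left) and PBS array (right). Squares carry the label WT and circles the label C57BL/6, and bars give the mean ± SD of 4 arrays. The groups overlap in every panel, and Retn spans the widest range, 0.81 log2 units over the 8 arrays.

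Adiponectin, encoded by Adipoq, is the most abundant hormone of fat cells and is made almost only by them. Its log2 intensity was 7.74, 7.28, 7.81 and 7.62 on the rIL-33 arrays (replicates 1 to 4), against 7.65, 7.83, 7.62 and 7.52 on the PBS arrays. Both the highest array (PBS replicate 2) and the lowest (rIL-33 replicate 2) carry the label C57BL/6, and they lie 1.46-fold apart in intensity. The group means were 7.61 ± 0.23 with rIL-33 and 7.65 ± 0.13 with PBS (SD, n = 4 each). The log2 difference was -0.04 (95% interval -0.30 to 0.22, limma adjusted p = 0.946). It was 0.14 within the WT-labelled arrays and -0.23 within the C57BL/6-labelled ones, and the test of that contrast gave 0.37 (95% interval -0.11 to 0.85, limma adjusted p = 0.999).

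Leptin, the hormone through which fat stores restrain appetite, is encoded by Lep. Its level was 6.54, 6.32, 6.80 and 6.38 on the rIL-33 arrays, and 6.19, 6.39, 6.62 and 6.66 on the PBS arrays. Its mean of 6.49 lay under the cut-off for dim genes (log2 intensity 6.65, the 25th percentile of genes), so it was tested only in the fit without that filter. There the difference was 0.04 (95% interval -0.25 to 0.33, limma adjusted p = 0.979), with -0.05 within the WT label and 0.14 within C57BL/6.

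Resistin (Retn), a small secreted protein that mouse fat cells make, was at 8.42, 8.39, 8.55 and 8.73 with rIL-33, against 8.02, 8.51, 8.83 and 8.30 with PBS. Both extremes are PBS arrays, replicate 3 at the top and replicate 1 at the bottom, 1.75-fold apart. Its spread within groups was wider than that of 92.9% of the genes tested. The difference was 0.11 (95% interval -0.24 to 0.45, limma adjusted p = 0.874), with 0.07 within the WT label and 0.14 within C57BL/6. Without PBS replicate 1 it was -0.02.

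The members that encode lipid droplet proteins, Plin1, Plin4 and Cidec, had positive differences, and none passed the threshold. Perilipin 1 (Plin1) coats the droplet of fat cells and gates lipolysis. It was at 7.65, 7.62, 7.88 and 7.84 with rIL-33 and at 7.31, 7.72, 7.51 and 7.60 with PBS. All rIL-33 arrays lay above 3 of the 4 PBS arrays, and PBS replicate 2 lay among them. The difference was 0.22 (95% interval -0.01 to 0.44, limma adjusted p = 0.523), with 0.31 within the WT label and 0.12 within C57BL/6.

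Perilipin 4 (Plin4), which coats small nascent droplets in fat cells and is also present in muscle fibres, was at 9.23, 8.96, 9.22 and 8.85 with rIL-33, against 8.83, 9.05, 8.63 and 8.70 with PBS. The means were 9.06 ± 0.19 with rIL-33 and 8.80 ± 0.18 with PBS (SD, n = 4 each), a 1.20-fold difference in intensity. On the log2 scale it was 0.26 (95% interval 0.00 to 0.52), at an unadjusted limma p of 0.0496 and an adjusted p of 0.517. It was 0.37 within the WT label and 0.16 within C57BL/6. Cidec (FSP27), which fuses small droplets into large ones, was at 7.65, 7.73, 8.05 and 7.83 with rIL-33 and at 7.47, 7.79, 7.89 and 7.73 with PBS. The highest array, rIL-33 replicate 3, and the lowest, PBS replicate 1, lay 0.59 log2 units apart. The difference was 0.10 (95% interval -0.15 to 0.35, limma adjusted p = 0.828), with 0.14 within the WT label and 0.06 within C57BL/6.

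Fabp4 binds fatty acids inside fat cells, capillary endothelium and macrophages. It was at 10.82, 10.87, 10.74 and 10.78 with rIL-33, against 10.77, 10.96, 10.80 and 10.71 with PBS. No 2 arrays differed by more than 1.18-fold, and its spread within groups exceeded that of only 16.6% of the genes tested. Its difference of -0.01 had the narrowest interval of the 8 members (-0.17 to 0.16, limma adjusted p = 0.987), and it was 0.0044 within the WT label and -0.02 within C57BL/6.

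Lipoprotein lipase (Lpl) releases fatty acids from circulating triglyceride at the capillary wall. It was at 11.45, 11.35, 11.05 and 11.07 on the rIL-33 arrays, and at 10.98, 11.36, 10.90 and 10.78 on the PBS arrays. In both treatment groups the 2 arrays labelled C57BL/6 lie above the 2 labelled WT. The difference was 0.23 (95% interval -0.08 to 0.53, limma adjusted p = 0.603), with 0.22 within the WT label and 0.23 within C57BL/6.

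Pparg encodes PPARγ, the nuclear receptor that drives fat cell differentiation. It was at 8.93, 9.07, 8.94 and 9.27 with rIL-33, against 9.16, 9.17, 9.23 and 9.21 with PBS. The PBS arrays were tight (SD 0.03), and 3 of the 4 rIL-33 arrays lay below all of them while rIL-33 replicate 4 lay above. The difference was -0.14 (95% interval -0.33 to 0.05, limma adjusted p = 0.599), with -0.12 within WT and -0.17 within C57BL/6. Of the bounds of the 8 intervals, the one farthest from 0 was that of Lpl at 0.53, a 1.44-fold change in intensity.

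**Figure D2:**
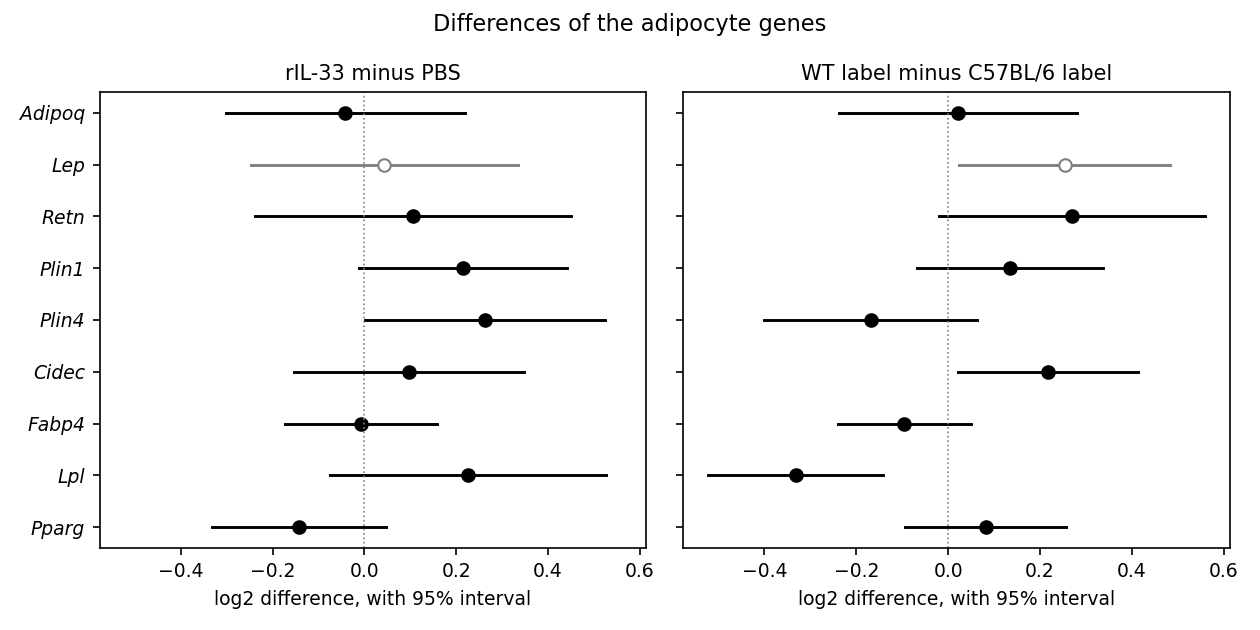
Log2 difference of each adipocyte gene between rIL-33 and PBS arrays (left) and between arrays labelled WT and C57BL/6 (right), with the 95% interval of the limma fit. Open grey circles mark Lep, which is under the cut-off for dim genes and was fitted without that filter. In the left panel the interval of Plin4 starts at 0.00 and the intervals of the other members span 0, and in the right panel that of Lpl lies below 0 and those of Cidec and Lep above.

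Between the genetic background labels 1 member, Lpl, passed the threshold. With treatment in the fit, 9.4% of all genes tested differed between the labels at an adjusted p under 0.05, and among the 8 members it was 1. The count behind that share, 1392 genes, changed when 1 array was left out, which also leaves fewer arrays to fit. It was 10 without rIL-33 replicate 1, 543 without rIL-33 replicate 3 and 884 without rIL-33 replicate 4. The count was 52, 111, 21 and 12 without PBS replicates 1, 2, 3 and 4, while it was 2509 without rIL-33 replicate 2. Why it changed was not tested. It was 376 after quantile normalization, and 0 among the rIL-33 arrays alone. The label groups overlapped in all 9 members with a value, while 20.2% of all tested genes had groups without overlap (9.13% higher and 11.1% lower on the WT-labelled arrays). Lpl averaged 10.95 ± 0.13 on the WT-labelled arrays and 11.28 ± 0.21 on the C57BL/6-labelled arrays (SD, n = 4 each). The log2 difference was -0.33 (95% interval -0.52 to -0.14, limma adjusted p = 0.0432). It was -0.34 among the rIL-33 arrays and -0.32 among the PBS arrays. The call was lost after quantile normalization (-0.24, adjusted p = 0.134) and after cyclic loess normalization (-0.25, adjusted p = 0.118), without the treatment term (0.0828), and in the rIL-33 arrays (0.523) or the PBS arrays (0.203) alone, with adjusted p between 0.00757 and 0.523 over all 18 alternatives. Leaving out any 1 array other than rIL-33 replicate 2 also ended it (adjusted p of 0.0628 to 0.127, differences of -0.26 to -0.41).

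The other members stood on either side of 0. Retn differed by 0.27 (8.60 on WT-labelled arrays against 8.33 on C57BL/6-labelled ones, limma adjusted p = 0.176) and Cidec by 0.22 (7.88 against 7.66, adjusted p = 0.121), while Plin4 differed by -0.17 (8.85 against 9.02, adjusted p = 0.280). Plin1 differed by 0.13, Pparg by 0.08, Adipoq by 0.02 and Fabp4 by -0.10, with limma adjusted p of 0.319 to 0.911. Adipoq differed by 0.21 among the rIL-33 arrays and by -0.16 among the PBS arrays, while the other 7 tested members had the same sign in both. The median over all genes differed with their brightness. It was 0.11 for genes between the dim cut-off and log2 intensity 8, where Adipoq, Plin1 and Cidec lie. It was -0.06 for genes between 8 and 9 (Plin4 and Retn), -0.09 between 9 and 10 (Pparg), -0.08 between 10 and 11 (Fabp4) and -0.05 above 11 (Lpl). No gene, member or other, passed the threshold for a treatment difference that itself differed between the labels (0 in limma, with 473 genes, 3.19%, and 0 members at an unadjusted p under 0.05).

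The members did not vary as a unit. With the group means taken off, the 36 pairs among 9 genes had a median Pearson r of 0.16 over the 8 arrays, with 8 pairs over 0.5 and 1 under -0.5. These correlations describe 8 arrays that share a normalization and the 2 labels, and no test was made of them. Plin1, Cidec, Retn and Lep were picked as a set from these same values, with r between 0.425 and 0.774. High values are in part what that choice brings, and some pairs outside the set were higher than its lowest pair. PBS replicate 1 was the lowest of the 8 arrays in all 4 of these genes, and it also had the lowest lower quartile of intensity, 88.3. After quantile normalization, an alternative added after seeing the data, the median r of this set was 0.42, against 0.65 as deposited, and the lowest pair was at 0.10.

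Fabp4 and Lpl followed each other (r = 0.90, Spearman 0.90, or r = 0.66 after quantile normalization). Adipoq went with Plin4 (r = 0.69) more than with Plin1 (r = 0.47) or Cidec (r = 0.32). Plin4 and Pparg ran opposite to each other (r = -0.79, Spearman -0.83, or r = -0.65 after quantile normalization). Fabp4 with Lpl was the highest and Plin4 with Pparg the lowest of the 36 pairs, so both were picked from these same values.

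**Figure D3:**
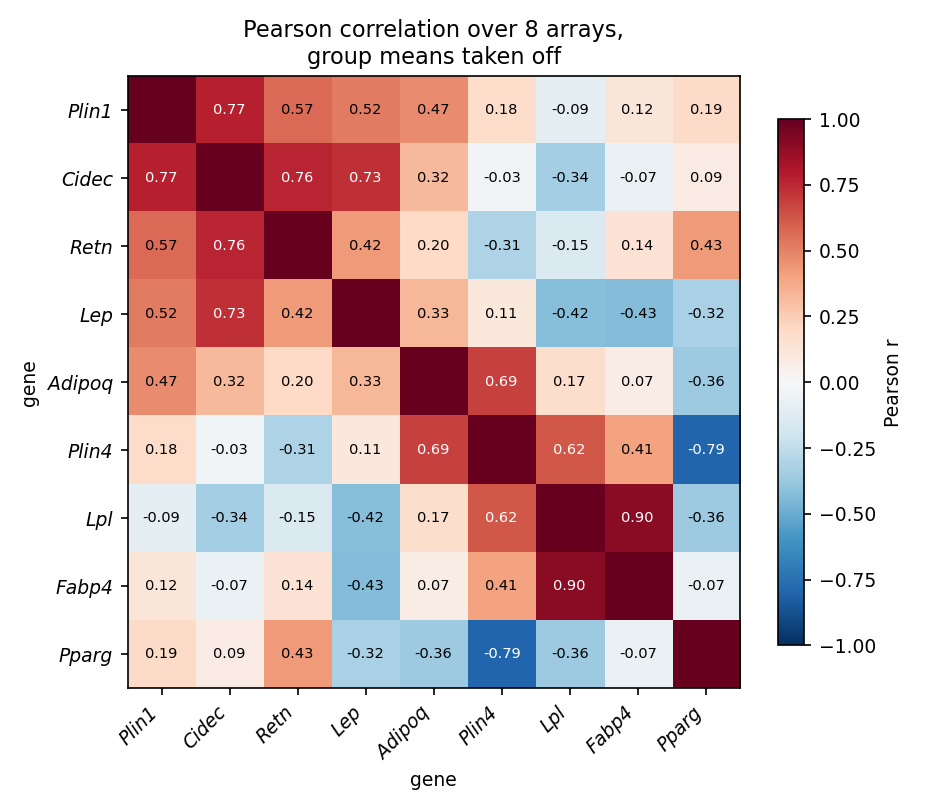
Pearson correlation of each pair of adipocyte genes over the 8 arrays, after the mean of each treatment group was taken off. Red marks positive and blue negative values. Plin1, Cidec, Retn and Lep, picked from these values and placed together, form a red block at the top left. Fabp4 and Lpl form a pair at 0.90, and Plin4 and Pparg have the lowest value at -0.79.

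The members were left out of a ranking of the tested genes by likeness to Adipoq over the 8 arrays (Pearson r after the group means were taken off). The 10 most like it were Narf, Entpd4, Klhl9, Dnajb5, Kcna2, Slc25a35, Tmem170b, Slc49a4, Glb1l2 and Usp2. Their r lay between 0.94 and 0.96, and between 0.84 and 0.95 without PBS replicate 2 and rIL-33 replicate 2, the arrays farthest from the Adipoq median. They were the top of the 14814 genes tested, members aside, so high values are what the choice brings. None of the 12 other mature adipocyte genes tested was among them, which says little, because 12 genes among 14814 would rarely reach a top 10.

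Other genes of mature fat cells had no call under treatment either. Of 16 gene symbols listed, 14 had a value and 12 were tested. Of these 12, 0 passed (limma adjusted p of 0.548 to 0.982, and 0 at an unadjusted p under 0.05). Their median difference was 0.04, with 8 higher and 4 lower. The largest differences were 0.29 in Gpd1 (SE 0.15), a glycerol phosphate enzyme also abundant in muscle, -0.15 in Trarg1 (SE 0.09), which acts in insulin-stimulated glucose transporter traffic, and 0.13 in the amino acid transporter gene Slc36a2 (SE 0.07). Of the brown fat genes, the uncoupling protein gene Ucp1 and the genes Cidea and Elovl3 were under the cut-off for dim genes. The other 5 of the 8 were tested and 0 passed in limma. At an unadjusted p under 0.05 there were 2, against 9.63% of all genes tested. Zic1, a transcription factor gene, differed by 0.32 (SE 0.12), Ppargc1a, a coactivator gene of mitochondrial programmes, by 0.32 (SE 0.09), and Dio2, which activates thyroid hormone, by -0.23 (SE 0.13).

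Droplet proteins and lipases other than the members had a median difference of 0.03, with 0 of 14 past the threshold in limma and 0 at an unadjusted p under 0.05. Fitm2, whose product helps droplets bud, differed by 0.22 (SE 0.15), the seipin gene Bscl2 by -0.19 (SE 0.09), and Abhd5, the activator of the main triglyceride lipase, by 0.16 (SE 0.08). Genes of triglyceride and fatty acid synthesis had a median of 0.04 and again 0 of 14 called in limma. At an unadjusted p under 0.05 there were 2 higher and 1 lower, against 9.63% of all genes tested. The malic enzyme gene Me1 differed by 0.42 (SE 0.16), the insulin-regulated glucose transporter gene Slc2a4 by 0.35 (SE 0.12) and the lipin gene Lpin1 by 0.32 (SE 0.17). All 3 are also expressed in muscle fibres.

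Partners of Lpl in fatty acid uptake had a median of -0.08, with 0 of 11 called in limma. Of the 11, 1 higher and 1 lower had an unadjusted p under 0.05, against 9.63% of all genes tested. The higher one was Vldlr, and the lower one is not among the 3 genes named next. Angptl4, a secreted inhibitor of lipoprotein lipase, differed by -0.41 (SE 0.22). The lipoprotein receptor gene Vldlr differed by 0.29 (SE 0.12) and Fabp5, a fatty acid binding protein of macrophages and endothelium, by -0.24 (SE 0.14).

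Among 20 tested transcription regulators of adipogenesis, 0 passed in limma, with a median of 0.02. At an unadjusted p under 0.05 there were 3, against 9.63% of all genes tested. Ebf1, an early factor of fat cell precursors, differed by -0.46 without overlap between the groups (SE 0.11, limma adjusted p = 0.489). Rxrg, a partner of PPAR receptors, differed by 0.41 (SE 0.13), and Ppargc1a by 0.32 with no overlap between the groups. Adipokine receptors and further adipokines had a median of -0.12, with 0 of 12 called and 3 at an unadjusted p under 0.05, against the same 9.63%. Aplnr, the apelin receptor gene of vessels, differed by -0.51 (SE 0.14), Nampt, which encodes visfatin, by 0.39 (SE 0.10), and Cap1, a reported resistin receptor, by -0.37 (SE 0.13).

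**Figure D4:**
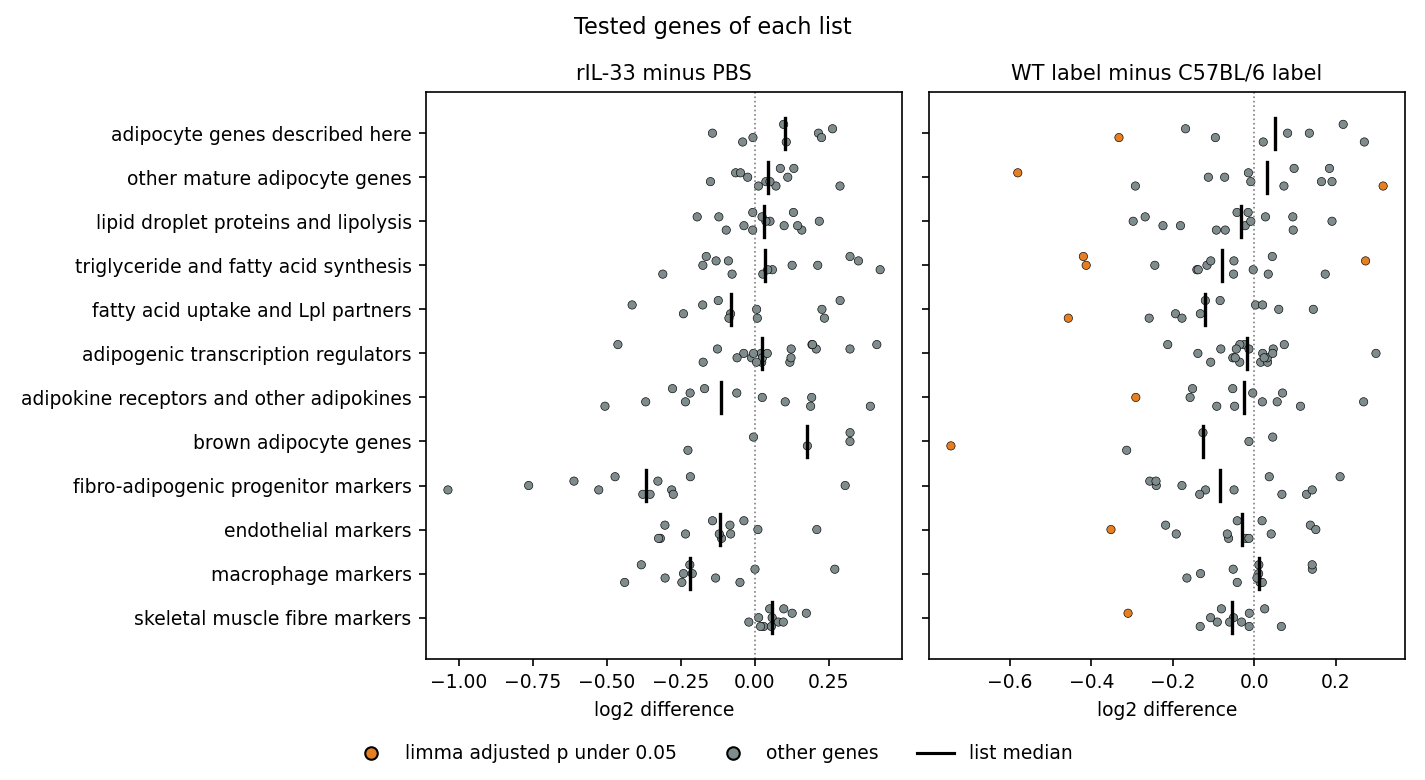
Log2 difference of every tested gene of each list, rIL-33 minus PBS (left) and WT label minus C57BL/6 label (right). Vertical bars are list medians and orange points are genes with a limma adjusted p under 0.05. The left panel has no orange point, the adipocyte genes lie between -0.14 and 0.26 there, and the fibro-adipogenic progenitor markers have the lowest median, -0.37.

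Markers of fibro-adipogenic progenitors, endothelium and macrophages had negative medians and those of muscle fibres a positive one, and none of them passed the threshold. Of 12 tested markers of fibro-adipogenic progenitors 11 were lower with rIL-33 and 1 higher, with a median of -0.37 and 0 past the threshold in limma. At an unadjusted p under 0.05 there were 10 lower and 1 higher, where 9.63% of all genes were at that p in either direction. Their summed intensity was 19463 to 23044 on the rIL-33 arrays and 26079 to 29375 on the PBS arrays, without overlap. Dlk1, an inhibitor of fat cell differentiation known as preadipocyte factor, showed the largest difference, -1.04 (SE 0.18, adjusted p = 0.429). The matrix proteoglycan gene Lum differed by -0.76 (SE 0.15) and the matrix gene Dpt by -0.61 (SE 0.15).

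Endothelial markers had a median of -0.12, with 10 of 12 lower and 0 called in limma. At an unadjusted p under 0.05 there were 4 lower and 1 higher, against 9.63% of all genes tested. The summed intensity of the endothelial markers was 9907 to 11367 with rIL-33, against 11444 to 12508 with PBS. Eng differed by -0.33, Emcn by -0.32 and Esam by -0.30, all genes of endothelial surface proteins (SE of 0.08 to 0.11). The sum of the 11 macrophage markers with a value overlapped, at 12073 to 16162 with rIL-33 and 15271 to 18155 with PBS. Of these 11, 9 were lower and 2 higher with rIL-33, and 0 passed in limma. The unadjusted p was under 0.05 in 3 of the lower and 1 of the higher, against the same 9.63%. Adgre1, which encodes the surface protein F4/80, differed by -0.44 (SE 0.15) and the chemokine receptor gene Cx3cr1 by -0.38 (SE 0.07). The lysosomal gene Cd68 differed by -0.30 (SE 0.15) and was not among these 4. The higher one of the 4 was Cd163, which differed by 0.27 (SE 0.11). Muscle fibre markers had a median of 0.06, with 0 of 12 called in limma and 0 at an unadjusted p under 0.05, and the largest differences were 0.17 in Myh2 (SE 0.15), 0.13 in Tnni2 (SE 0.13) and 0.10 in Myh4 (SE 0.08). Every defining marker of these 4 lists with a value was above the cut-off for dim genes. Their part in the values of Pparg, Fabp4 and Lpl was not tested.

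Between the labels, 10 of the 131 tested list genes that are not members passed the threshold, 7.63% of them against 9.4% of all genes tested. On the WT-labelled arrays 8 were lower (6.11%, against 6.2% of all genes) and 2 higher (1.53%, against 3.19%), so neither share was above that of all genes. Fabp3, the fatty acid binding protein of muscle, differed by -0.46 (SE 0.11, limma adjusted p = 0.0358), and Thrsp, a lipogenic gene of fat and muscle, by -0.58 (SE 0.13, adjusted p = 0.0357). In lipid synthesis Lpin1 differed by -0.42 and Gpam, the first enzyme of glycerolipid synthesis, by -0.41, while the desaturase gene Scd1 was higher by 0.27 (adjusted p of 0.0382 to 0.0472). Pck1, an enzyme of glyceride-glycerol synthesis in fat cells, was higher by 0.32 (adjusted p = 0.0310). Cox8b, a respiratory chain subunit of muscle and brown fat, differed by -0.74 (SE 0.10, adjusted p = 0.0126). The same direction was seen in the angiotensinogen gene Agt (-0.29), the endothelial receptor gene Kdr (-0.35) and the fast troponin gene Tnni2 (-0.31), with adjusted p of 0.0295 to 0.0472. Of the genes that did not pass, Dio2 differed by -0.31, Fitm2 by -0.30, the monoglyceride lipase gene Mgll by -0.27, the fatty acid transporter gene Cd36 by -0.26 and Fitm1 by -0.22, while Cebpd, an early C/EBP factor of adipogenesis, differed by 0.30 and the retinol carrier gene Rbp4 by 0.27 (limma adjusted p of 0.0518 to 0.144). Of the 10, Cox8b and Scd1 kept an adjusted p under 0.05 after quantile and after cyclic loess normalization, and the other 8 did not. None of the 10 kept it without rIL-33 replicate 1 (0.0711 to 0.138), PBS replicate 1 (0.0514 to 0.137), PBS replicate 3 (0.0509 to 0.115) or PBS replicate 4 (0.0512 to 0.0999). Cox8b alone kept it without PBS replicate 2 (0.0468), while 9 kept it without rIL-33 replicate 2, 6 without rIL-33 replicate 3 and 4 without rIL-33 replicate 4. The summed intensity of the 12 muscle fibre markers was 116632 to 131686 on WT-labelled arrays and 125492 to 133761 on C57BL/6-labelled arrays, and its part in these differences was not tested.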

How the data were processed

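Per the submitters' processing notes the authors summarised the arrays by RMA with Affymetrix Power Tools (no version is given), and the deposited values are intensities on a linear scale, already background-corrected and normalized between arrays. The log2 of each deposited intensity was taken here. Of 24922 probe sets, 21425 had exactly 1 gene symbol in the platform annotation, 1399 had several and 2098 were not listed. Each of 19752 genes was represented by its one-symbol probe set of highest mean. Genes under the 25th percentile of mean level (log2 intensity 6.65) were called dim, which left 14814 to test. The design set the tests on log2 values, with the log taken first where the values are linear.

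Differences were fitted over all tested genes with limma 3.58.1 in R 4.3.3 (lmFit and eBayes, Benjamini-Hochberg, threshold 0.05, Python 3.11.15 for tables). The treatment fit had the group alone, the label fit also held the treatment, and another fit held their interaction. The number of arrays, 4 a group, limits the precision. On simulated data for rIL-33 against PBS (14814 genes), the fit recovered 64% of log2 changes of 0.5, 88% of 1 and 100% of 2 or 3 (50 genes of each size), with 14 false calls. The simulation planted many large changes in noise drawn independently for each gene and array. In the data only 1 gene passed, and Dlk1, with a difference of -1.04, had a limma adjusted p of 0.429. The recovered shares are therefore not the power of the comparison in the data.

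The members and gene lists were chosen with earlier results of these data known. The text names all members, the 10 tested genes other than members most like Adipoq, and per list the 3 largest differences in a comparison and any called gene. Of the largest differences between the labels, some that did not pass are left out. Settings changed one at a time were normalization, dim filter, eBayes options, array weights, probe set choice, blocks, subsets by label or treatment, and leaving out each array.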

Additional observations from a re-analysis of the deposited data

How the results depend on the processing

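No alternative gave a call for a member under rIL-33. Over 19 alternatives the median difference of the tested members ran from -0.0029 to 0.17. The number of genes called (1 in all) was 0 with the replicate number as a block (2327 at an unadjusted limma p under 0.05), 2 within C57BL/6, 4 within WT, and 1 to 2 with an array left out. Same-numbered arrays correlated at 0.44, -0.19, 0.43 and 0.54, and not every array correlated best with its own number. Whether the replicate numbers pair the samples was not tested, and they also follow the labels. The replicate block called no member. Within WT the difference was 0.14 in Adipoq, 0.0044 in Fabp4 and -0.13 in Myh2, and within C57BL/6 it was -0.0024 in Myh4. With an array left out it ran from -0.11 to 0.0685 in Adipoq, -0.0388 to 0.0427 in Fabp4 and -0.0247 to 0.25 in Retn.

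The label count (1392) was 376 after quantile and 421 after cyclic loess normalization, 892 with a filter at the 50th percentile, 3432 with array weights, 796 without the treatment term, 0 among rIL-33 arrays (1386 at an unadjusted limma p under 0.05), 35 among PBS arrays, and 10 to 2509 with an array left out. The share of higher calls was 34.0%, against 25.5% after quantile and 23.5% after cyclic loess normalization, 44.6% without the dim filter and 10.2% at the 50th percentile. Adipoq was at -0.0129 and -0.0322 after those normalizations, -0.10 with array weights, -0.16 among PBS arrays, and -0.11 to 0.10 with an array left out. Zic1 was at 0.0323 among rIL-33 arrays and Cd68 at 0.0162 with array weights. Plin4 passed with array weights (-0.27, adjusted p = 0.0445, in a range of 0.0445 to 0.907).

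For the interaction (0 genes) leaving out an array gave 0 to 8 calls, none a member, with ranges of -0.0724 to 0.12 in Fabp4, -0.023 to 0.38 in Plin1, -0.0824 to 0.24 in Cidec, -0.33 to 0.20 in Retn, -0.21 to 0.17 in Lpl and -0.11 to 0.21 in Pparg. The cause of these shifts was not tested. Lep lay under the dim cut-off, so it has no value in the settings with that filter.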
